A study of Rattus norvegicus with 27 samples.

Results

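The genes described here are those of the cyclic AMP, protein kinase C and calcium/calmodulin kinase pathways and the protein phosphatases and phosphodiesterases that oppose them, in motor neurons of the rat tail after spinal cord transection. They were chosen by symbol in the platform annotation: genes whose names start with Prka, Prkc (other than Prkcsh), Camk, Akap or Ppm1, or with Adcy, Pde or Ppp followed by a digit. This gave 117 of the 9769 genes with a single-symbol probe set, or 1.20%, and the brightest probe set stood for a gene with several. The arrays came from adult male Wistar rats in 4 groups: Spi-21 (8 arrays, cord transected at S2, 21 days), ShamC-21 (6 arrays, sham operation, 21 days), Spi-60 (8 arrays, transected, 60 days) and ShamC-60 (5 arrays, sham, 60 days). Transection removed a short stretch of sacral cord, whereas the sham animals had the vertebrae opened and kept an intact dura, and both operations were followed by buprenorphine. In all groups the neurons were filled with Fluorogold, a tracer carried back from muscle, 5 to 7 days before the tissue was taken, then laser-dissected from frozen sections, and their RNA was amplified in 2 rounds before hybridisation to Affymetrix rat arrays. The labels number the arrays as biological replicates but tie none to an animal, litter or batch, so p-values measure only the spread between these samples.

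Protein kinase A is a tetramer of catalytic subunits held inactive by regulatory subunits, which let go when they bind cyclic AMP made by adenylyl cyclases. Phosphodiesterases destroy cyclic AMP and cyclic GMP, and A-kinase anchoring proteins hold the kinase next to its substrates. Protein kinase C isoforms respond to diacylglycerol and, for the conventional ones, to calcium, and CaM kinases respond to calcium bound to calmodulin. The phosphatases PP1, PP2A, calcineurin and their relatives remove the phosphates again. In motor neurons these enzymes act downstream of serotonin, noradrenaline and glutamate receptors and change the gating and placement of ion channels and receptors, and transection at this level cuts the descending fibres that release serotonin and noradrenaline onto tail motor neurons.

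Signals are given on the log2 scale as RMA left them. Each difference subtracts the sham mean from the transected mean, ± the standard error from limma on all 27 arrays, and a gene passed at an adjusted p below 0.05 over 12913 probe sets. Array medians lay between 6.31 and 6.41. Motor neuron markers were present, with a mean over 8 measured markers of 11.26 to 11.65 in Spi-21, 11.52 to 11.77 in ShamC-21 and 11.4 to 11.7 in Spi-60 arrays, whereas ShamC-60 replicate 4 stood apart at 9.93 in a group with a median of 11.54. The 3′ minus 5′ difference of the beta-actin control, a measure of RNA length after amplification, was larger in every transected array than in any sham array of its day: 2.86 to 3.60 in Spi-21 and 1.97 to 2.65 in ShamC-21 arrays (difference 0.92, adjusted exact permutation p = 0.00133 over 4 tests, two-sided), and 2.76 to 3.77 in Spi-60 and 1.92 to 2.42 in ShamC-60 arrays (difference 1.05, adjusted exact permutation p = 0.00155). The same difference for GAPDH had the opposite sign at 21 days, with 0.985 to 3.47 in Spi-21 and 2.65 to 3.26 in ShamC-21 arrays (difference -0.84, adjusted exact permutation p = 0.0606), and was larger at 60 days, with 2.85 to 3.85 in Spi-60 and 2.31 to 2.92 in ShamC-60 arrays (difference 0.81, adjusted exact permutation p = 0.00414). It ran from 2.57 up to 3.47 in Spi-21 replicates 1 to 4 and from 0.985 up to 1.46 in the other 4 Spi-21 arrays, below every ShamC-21 array. Markers of glia were also measured: 3 of 6 astrocyte, 2 of 6 oligodendrocyte and 2 of 8 microglial markers were higher at 21 days and 1 of each list at 60 days, while 3 of 8 motor neuron markers were higher at 60 days. These 3 were Slc18a3, Prph and Nefh, whose lowest ShamC-60 values were 5.43, 9.78 and 13.17. Their ShamC-60 medians were 7.04, 12.8 and 14.17, against Spi-60 medians of 8.295, 13.19 and 14.41. Of 2 blood markers measured, the haemoglobin gene Hbb was lower at 60 days, with 6.41 to 7.41 in Spi-60 and 7.18 to 10.42 in ShamC-60 arrays (difference -1.38, adjusted p = 0.00494). The part of these shifts in the results below was not tested, and a smaller share of neurons and less RNA per neuron cannot be told apart in dissected pools.

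At 21 days 14 of the 117 genes were higher and 23 lower after transection, 31.6% of them, against 22.6% of all probe sets (11.3% higher and 11.2% lower). At 60 days 19 were higher and 17 lower, 30.8% of them, against 19.1% of all probe sets (10.2% higher and 8.92% lower). Counting only the brightest probe set of each of the 9769 genes, 22.6% were called at 21 days (11.1% higher and 11.5% lower) and 20.1% at 60 days (10.7% higher and 9.44% lower). The median difference of the 117 genes was near that of all probe sets on both days, at -0.01 against 0.01 at 21 days and 0.06 against 0.02 at 60 days. Complete separation, with every transected array above or below every sham array, was seen at 21 days for 7 genes above and 6 below, where 3.07% and 2.22% of all probe sets separated in that way. At 60 days 12 separated above and 6 below, against 4.78% and 3.42% of all probe sets. In all, 68 genes passed on neither day. Leaving out ShamC-60 replicates 1 and 4 reduced the 60-day counts to 11 higher and 4 lower, where 3.66% and 2.52% of all probe sets were then called. Leaving out Spi-21 replicates 1 to 4 reduced the 21-day counts to 10 and 10, where 5.26% and 5.08% were. Without Spi-21 replicates 5 to 8, 13 of the 14 higher and 19 of the 23 lower genes still passed. In that fit 14.8% of all probe sets were higher and 15.5% lower.

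**Figure D1:**
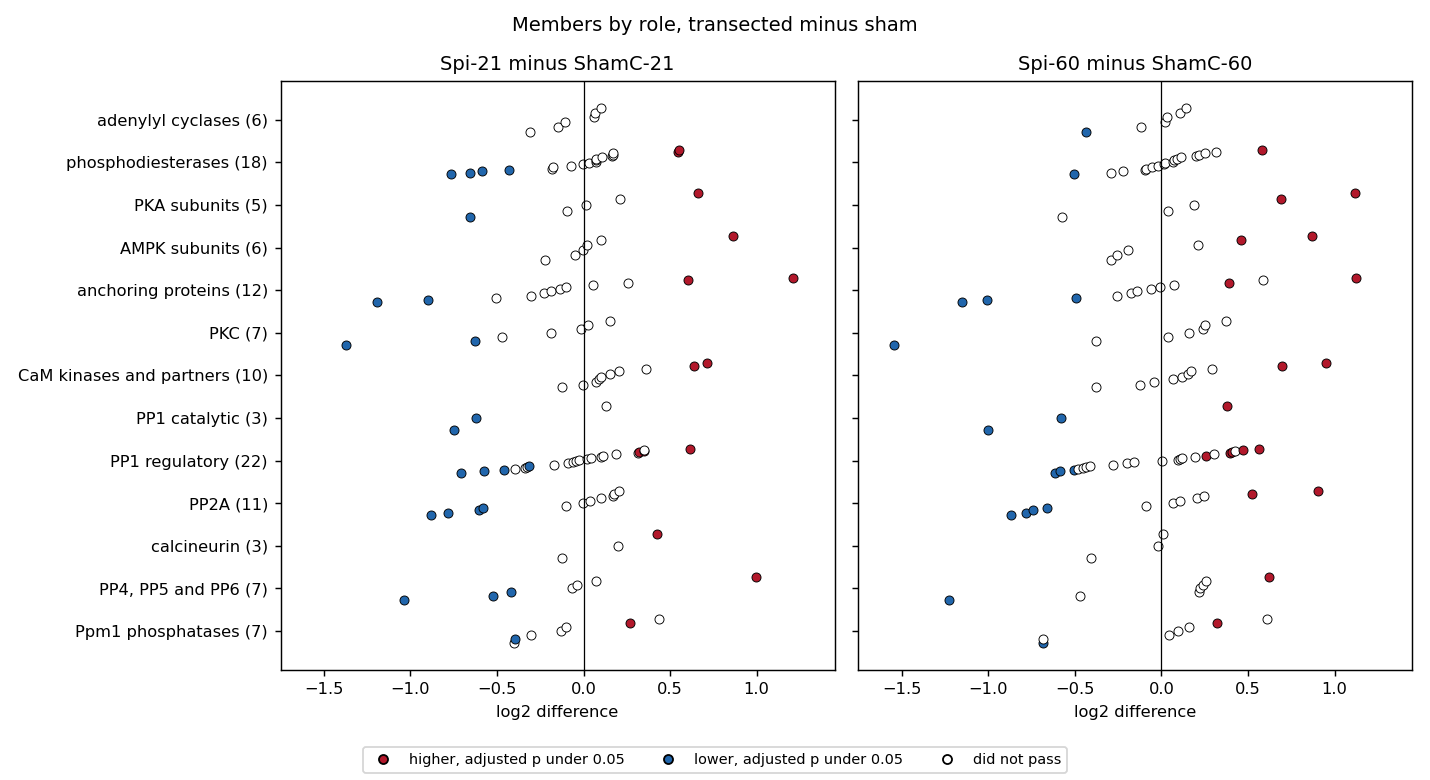
Log2 difference, transected minus sham, of each of the 117 genes at 21 days (left) and 60 days (right), in rows by role with the number of genes in brackets. Filled points passed an adjusted p of 0.05; the red points reach 1.21 (Akap8l) at 21 days, and the blue points reach -1.37 at 21 days and -1.54 at 60 days (both Prkcb).

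The 5 measured subunits of protein kinase A split. The catalytic subunit gene Prkaca was higher on both days. Its signal was 7.76 to 8.65 (median 8.17) in the Spi-21 arrays, against 7.30 to 7.62 (median 7.48) in the ShamC-21 arrays, and 8.10 to 8.66 (median 8.32) in the Spi-60 arrays, against 7.36, 7.15, 7.58, 6.71 and 7.36 in ShamC-60 replicates 1 to 5. Neither day's groups overlapped, and the lowest transected array of each day was still above the highest sham array. The differences were 0.66 ± 0.13 (adjusted p = 0.000741) at 21 days and 1.12 ± 0.13 (adjusted p = 2.29e-06) at 60 days, or 1.58-fold and 2.17-fold higher. Both passed under all alternatives tried.

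The regulatory subunits followed different courses. Prkar1b, a type I regulatory subunit of neurons, had 9.76 to 10.63 (median 10.13) in the Spi-21 arrays, against 9.89 to 10.40 (median 10.15) in the ShamC-21 arrays, a difference of 0.011 ± 0.13 (adjusted p = 0.96). At 60 days it had 10.08 to 10.88 (median 10.54) in the Spi-60 arrays, against 9.93, 9.80, 10.000, 9.80 and 9.80 in ShamC-60 replicates 1 to 5, without overlap, and the difference was 0.69 ± 0.14 (adjusted p = 0.00112). Within Spi-21 its replicates 1 to 4 lay at 10.25 to 10.63 and its replicates 5 to 8 at 9.76 to 10.01. Prkar2b, a type II regulatory subunit, had 7.68 to 9.62 (median 8.96) in the Spi-21 arrays, against 9.24 to 10.21 (median 9.49) in the ShamC-21 arrays, so that 5 of 8 transected arrays were below every sham array. Its 21-day difference of -0.66 ± 0.22 (adjusted p = 0.0306) no longer passed when any 1 of 6 single arrays was left out (highest adjusted p 0.0988), and its 60-day difference was -0.57 ± 0.23 (adjusted p = 0.0796). Prkar2a did not pass, at 0.21 and 0.036. The second catalytic gene, Prkacb, differed by -0.096 ± 0.18 (adjusted p = 0.735) at 21 days in its brightest probe set, while a further probe set fell by 0.79 (adjusted p = 0.00239) and another rose by 0.57 (adjusted p = 0.0119), so no direction is given for this gene. Prkar1a was not analysed here.

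The AMP-activated kinase genes share the Prka prefix but not the cyclic AMP switch, since this kinase is turned on by falling cell energy. Of 6 subunits, 1 was higher at 21 days and 2 at 60 days, and none fell. Prkaa2, a catalytic subunit, had 6.02 to 7.15 (median 6.81) in the Spi-21 arrays, against 5.55 to 5.93 (median 5.83) in the ShamC-21 arrays, and 6.30 to 6.996 (median 6.62) in the Spi-60 arrays, against 5.91, 5.73, 5.59, 5.73 and 5.88 in ShamC-60 replicates 1 to 5. The groups were apart on both days, with differences of 0.86 ± 0.14 (adjusted p = 0.000178) and 0.87 ± 0.15 (adjusted p = 0.000259), and both calls held under each alternative that included this dim probe set. Prkag1, a regulatory subunit chosen for naming after its values were seen, differed by 0.46 ± 0.083 (adjusted p = 0.000402) at 60 days and by 0.10 ± 0.079 (adjusted p = 0.362) at 21 days. Prkag2 showed 0.02 and -0.29, which did not pass.

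Protein kinase A phosphorylates the transcription factor CREB, which binds the cyclic AMP response element TGACGTCA. Promoter windows of 250 bases before to 50 after the start were found in the RefSeq table (build GRCr8) for 93 of the 117 genes, in 102 windows. The 8 letters TGACGTCA, the same on both strands, were in 5 of the 102 windows (4.90%), against 2.74% of 8735 windows of 8051 array genes. Of the windows of genes that passed on either day 4 of 40 held it, and of the other genes 1 of 62. The letters TGANTCA, an AP-1-type motif that does not overlap the other and is also the same on both strands, were in 4 of 102 windows (3.92%), against 5.63%. They too were in more windows of genes that passed, 3 of 40, than of the other genes, 1 of 62. The 5 stretches that hold the response element are shown because they include both genes that were higher (Akap17a, Ppp1r12c and Ppp1r15a) and 1 that was lower (Ppp2ca), with the motif in capitals and 250 bases before the start on the gene's strand:
Akap17a: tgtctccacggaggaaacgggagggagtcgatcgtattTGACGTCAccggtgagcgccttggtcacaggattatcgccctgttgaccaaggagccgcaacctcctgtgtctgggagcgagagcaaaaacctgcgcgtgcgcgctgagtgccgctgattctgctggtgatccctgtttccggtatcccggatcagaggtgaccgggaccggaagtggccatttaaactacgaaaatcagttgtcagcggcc
Ppp1r12c: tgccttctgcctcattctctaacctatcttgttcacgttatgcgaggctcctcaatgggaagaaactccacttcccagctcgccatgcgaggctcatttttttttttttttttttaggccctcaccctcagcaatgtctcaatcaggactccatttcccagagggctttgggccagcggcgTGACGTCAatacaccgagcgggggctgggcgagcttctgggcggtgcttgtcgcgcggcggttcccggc
Ppp1r15a: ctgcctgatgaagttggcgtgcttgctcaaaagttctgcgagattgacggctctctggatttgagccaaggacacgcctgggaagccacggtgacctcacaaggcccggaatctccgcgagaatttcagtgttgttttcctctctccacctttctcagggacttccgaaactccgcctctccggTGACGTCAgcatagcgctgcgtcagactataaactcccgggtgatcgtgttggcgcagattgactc
Ppp2ca: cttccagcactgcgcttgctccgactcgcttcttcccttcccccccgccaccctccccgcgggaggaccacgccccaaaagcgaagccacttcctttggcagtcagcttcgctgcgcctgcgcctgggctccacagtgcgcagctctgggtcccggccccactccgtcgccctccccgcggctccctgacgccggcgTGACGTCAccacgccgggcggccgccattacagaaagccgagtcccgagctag
Ppp2r2d: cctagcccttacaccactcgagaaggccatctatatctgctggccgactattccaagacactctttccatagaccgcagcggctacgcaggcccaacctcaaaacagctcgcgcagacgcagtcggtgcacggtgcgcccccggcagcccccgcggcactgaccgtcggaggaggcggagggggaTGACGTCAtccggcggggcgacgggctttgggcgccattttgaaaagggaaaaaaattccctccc
The stretches lie at chr12:21428248-21428497 (minus strand), chr1:78362678-78362927 (plus), chr1:105139597-105139846 (minus), chr10:36858787-36859036 (plus) and chr1:203095332-203095581 (plus). The motif begins 212 bases before the start in Akap17a and 69, 66, 53 and 65 bases before it in the other genes, in the order shown. Among these 5 genes the differences at 21 and 60 days were 0.60 and 0.39 for Akap17a, 0.31 and 0.56 for Ppp1r12c, 0.042 and 0.26 for Ppp1r15a, -0.78 and -0.78 for Ppp2ca and 0.039 and 0.069 for Ppp2r2d. Genes with the same 8 letters thus passed in opposite directions, and Ppp2r2d passed on neither day. A match describes the letters and no more.

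Among 12 anchoring proteins, 2 were higher and 2 lower at 21 days, and 2 were higher and 3 lower at 60 days. Akap8l, a nuclear protein related to Akap8, had 7.20 to 8.40 (median 7.69) in the Spi-21 arrays, against 6.23 to 6.68 (median 6.56) in the ShamC-21 arrays, and 7.13 to 8.07 (median 7.69) in the Spi-60 arrays, against 6.47, 6.05, 6.88, 6.29 and 6.81 in ShamC-60 replicates 1 to 5. No array overlapped between groups, and the differences were 1.21 ± 0.17 (adjusted p = 2.97e-05) and 1.12 ± 0.18 (adjusted p = 0.000117). Both of its other probe sets were higher at 21 days, by 0.36 and 0.88. At 60 days they showed 0.33 (adjusted p = 0.0681), which did not pass, and 0.86 (adjusted p = 0.000528). Akap17a, a nuclear protein of splicing factor compartments whose promoter is printed above, was higher, with differences of 0.60 ± 0.12 (adjusted p = 0.000914) and 0.39 ± 0.12 (adjusted p = 0.0286), with the 60-day call lost without any 1 of 4 arrays (highest adjusted p 0.0748).

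Akap9, a large scaffold of the centrosome and Golgi whose short form yotiao binds NMDA receptors, was lower. Its values were 7.44 to 8.59 (median 8.25) in the Spi-21 arrays, against 8.70 to 9.17 (median 9.02) in the ShamC-21 arrays, and 7.71 to 8.38 (median 8.11) in the Spi-60 arrays, against 8.94, 8.98, 9.06, 9.53 and 8.88 in ShamC-60 replicates 1 to 5. Transected and sham arrays were apart on both days, by -0.90 ± 0.16 (adjusted p = 0.000475) and -1.01 ± 0.17 (adjusted p = 0.000216), and the 60-day difference passed without ShamC-60 replicates 1 and 4 at -0.90 (adjusted p = 0.00698). Its dimmer second probe set showed -0.041 (adjusted p = 0.92) and -0.20 (adjusted p = 0.595), and the mean of both sets was -0.47 (adjusted p = 0.0242) and -0.61 (adjusted p = 0.00784). Without Spi-21 replicates 1 to 4 the 21-day value was -0.54 (adjusted p = 0.0165). Akap7, whose small membrane-bound forms tether the kinase to L-type calcium channels, had 6.81 to 8.90 (median 7.35) in the Spi-21 arrays, against 7.51 to 9.36 (median 8.95) in the ShamC-21 arrays. At 60 days it had 7.08 to 8.38 (median 7.76) in the Spi-60 arrays, against 8.88, 8.48, 8.65, 9.59 and 8.56 in ShamC-60 replicates 1 to 5, without overlap. The differences were -1.19 ± 0.28 (adjusted p = 0.00437) and -1.15 ± 0.30 (adjusted p = 0.00869), and without ShamC-60 replicates 1 and 4 the 60-day value was -0.88 (adjusted p = 0.132), while the mean of its probe sets was -0.76 (adjusted p = 0.00867) and -0.75 (adjusted p = 0.0137). Akap8, a nuclear matrix anchoring protein named after its values were seen, had a 60-day difference of -0.49 ± 0.13 (adjusted p = 0.0117) and a 21-day difference of -0.13. Akap12, a scaffold for protein kinases A and C, had opposite signs of -0.51 ± 0.23 (adjusted p = 0.106) and 0.58 ± 0.24 (adjusted p = 0.0863), neither of which passed, and Akap5, a postsynaptic scaffold, showed -0.30 and -0.14.

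Of 7 protein kinase C genes, 2 were lower at 21 days and 1 at 60 days, and none was higher. Prkcb, a conventional isoform that responds to calcium, showed the largest fall of the 117 genes on both days. It had 7.30 to 9.11 (median 8.50) in the Spi-21 arrays, against 9.47 to 10.01 (median 9.86) in the ShamC-21 arrays, and 8.20 to 8.96 (median 8.27) in the Spi-60 arrays, against 9.95, 9.54, 9.60, 11.33 and 9.43 in ShamC-60 replicates 1 to 5. Every transected array was below every sham array on both days. The differences were -1.37 ± 0.26 (adjusted p = 0.000797) and -1.54 ± 0.28 (adjusted p = 0.000379), or 2.59-fold and 2.92-fold lower, and without ShamC-60 replicates 1 and 4 the 60-day value was -1.10 (adjusted p = 0.0142). Its second probe set was lower by 0.42 at 21 days (adjusted p = 0.0291) and showed -0.40 at 60 days (adjusted p = 0.0504), and the mean of both sets was -0.90 (adjusted p = 0.00117) and -0.97 (adjusted p = 0.00079).

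The other isoforms moved less. Prkch, a calcium-independent isoform, had 6.38 to 7.68 (median 7.08) in the Spi-21 arrays, against 7.43 to 8.20 (median 7.58) in the ShamC-21 arrays, a difference of -0.62 ± 0.20 (adjusted p = 0.0231) that was lost without ShamC-21 replicate 1 or 4 (highest adjusted p 0.0686). At 60 days it showed 0.24 ± 0.21 (adjusted p = 0.427), and its effect was not called different between the days at 0.87 ± 0.28 (adjusted p = 0.627). Prkca, the other conventional isoform measured, showed 0.15 and 0.25, Prkcd -0.47 and 0.16, and Prkcq -0.015 and -0.38. The atypical isoforms, which need neither calcium nor diacylglycerol, were Prkcz at -0.19 and 0.37 and Prkci at 0.023 and 0.039, and none of these 5 genes passed on either day. Prkce was not analysed here.

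In the CaM kinase group of 10 genes, 2 were higher on both days and none fell. Camk2n1, which encodes a small inhibitor protein of CaM kinase II, had 5.91 to 6.62 (median 6.11) in the Spi-21 arrays, against 5.41 to 5.54 (median 5.48) in the ShamC-21 arrays. Its 60-day values were 5.97 to 6.17 (median 6.06) in the Spi-60 arrays, against 5.34, 5.26, 5.52, 5.33 and 5.50 in ShamC-60 replicates 1 to 5. The groups were far apart on both days and the 5 sham arrays of 60 days reached at most 5.52, with differences of 0.71 ± 0.093 (adjusted p = 1.06e-05) and 0.70 ± 0.099 (adjusted p = 2.59e-05) that passed under each alternative that included this dim probe set. Camk2g, the gamma subunit of CaM kinase II, had 6.002 to 7.81 (median 6.50) in the Spi-21 arrays, against 6.01 to 6.31 (median 6.09) in the ShamC-21 arrays, and 6.36 to 6.98 (median 6.78) in the Spi-60 arrays, against 5.94, 5.91, 5.75, 5.57 and 5.88 in ShamC-60 replicates 1 to 5. At 21 days its groups overlapped. Spi-21 replicates 1 to 4 were at 6.63 to 7.81 and replicates 5 to 8 at 6.002 to 6.37. The differences were 0.64 ± 0.20 (adjusted p = 0.0228) and 0.95 ± 0.21 (adjusted p = 0.00266). At 21 days it was 0.11 (adjusted p = 0.569) without replicates 1 to 4 and 1.17 (adjusted p = 2.65e-05) without replicates 5 to 8.

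The other named CaM kinase genes did not pass. Camk2a, the alpha subunit, showed 0.10 and -0.041, Camk2b, the beta subunit, 0.36 ± 0.15 (adjusted p = 0.073) and 0.29 ± 0.15 (adjusted p = 0.186), and Camk2d, the delta subunit, -0.12 and -0.12. Camk2n2, the second inhibitor, showed 0.21 and 0.17, the nuclear kinase Camk4 0.091 and 0.15, and the upstream kinase Camkk2 0.15 and 0.064. Camkv, a kinase-like protein without known kinase activity, showed 0.075 at 21 days and -0.38 at 60 days, where ShamC-60 replicate 4 was at 8.28 and the other 4 sham arrays at 5.80 to 6.22.

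**Figure D2:**
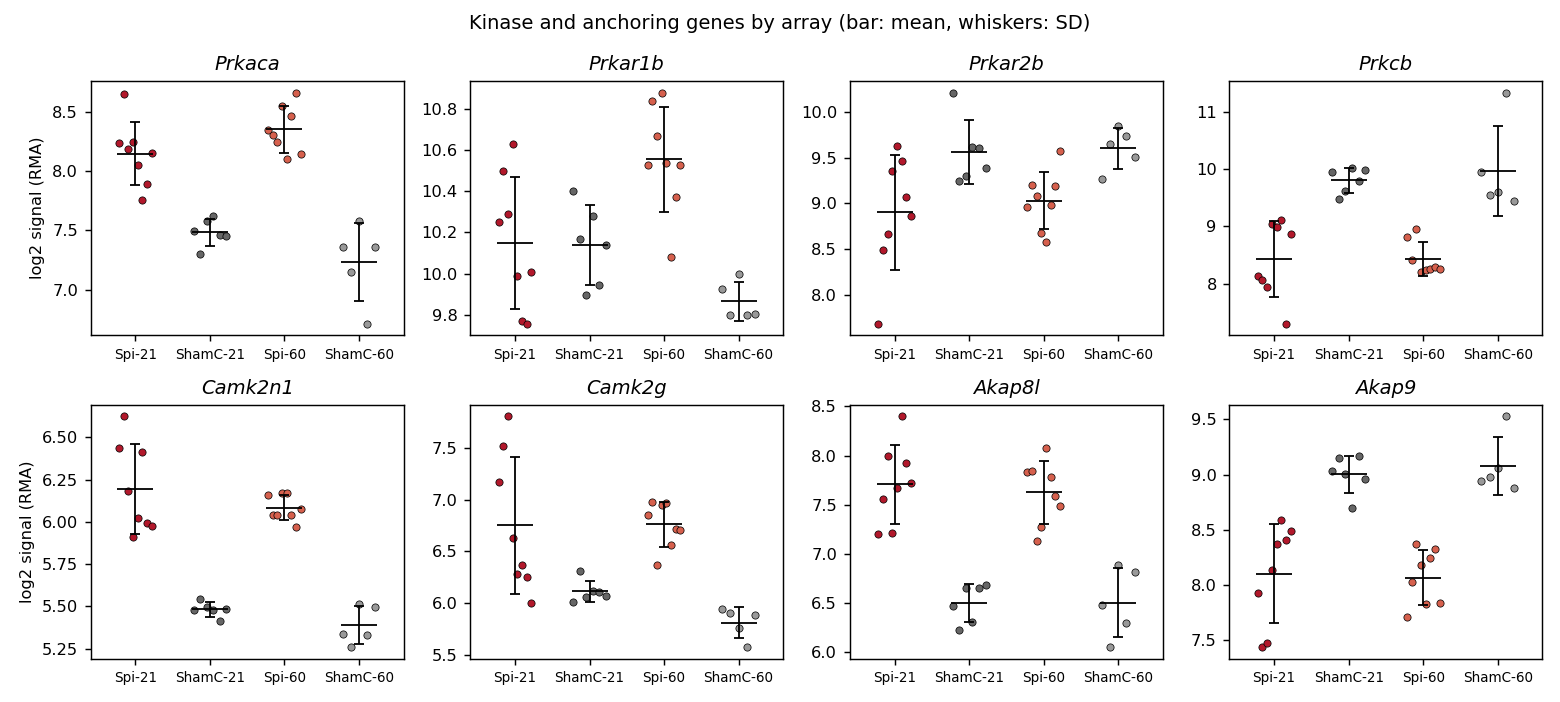
Log2 signal of 8 kinase and anchoring genes in each array, in the order Spi-21, ShamC-21, Spi-60 and ShamC-60, with the mean and SD of each group; the vertical scale differs between panels and does not start at 0. Prkaca, Camk2n1 and Akap8l lie higher, and Prkcb and Akap9 lower, in every transected array than in every sham array of the same day, whereas Prkar1b separates at 60 days only and Camk2g shows 3 high Spi-21 arrays.

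The enzymes that make cyclic AMP moved little. None of 6 adenylyl cyclases passed at 21 days, and at 60 days Adcy8, a calcium-stimulated cyclase, was lower, with a difference of -0.44 ± 0.16 (adjusted p = 0.0494). Its values were 5.05 to 5.68 (median 5.46) in the Spi-60 arrays, against 5.94, 5.62, 5.69, 6.38 and 5.56 in ShamC-60 replicates 1 to 5, which overlapped, and the call was lost without any 1 of 16 arrays (highest adjusted p 0.211). Adcy5, a calcium-inhibited cyclase, showed -0.11 and 0.11. Adcy1 and Adcy2 were not analysed here.

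Of 18 genes with a phosphodiesterase name, 2 were higher and 4 lower at 21 days, and 1 was higher and 1 lower at 60 days. Pde10a, which hydrolyses both cyclic nucleotides and is best known from the striatum, had 7.37 to 7.89 (median 7.59) in the Spi-21 arrays, against 6.84 to 7.23 (median 7.10) in the ShamC-21 arrays, and 7.31 to 7.83 (median 7.63) in the Spi-60 arrays, against 6.84, 7.19, 6.92, 7.10 and 6.95 in ShamC-60 replicates 1 to 5. The groups did not overlap on either day, and the differences were 0.55 ± 0.10 (adjusted p = 0.000497) and 0.58 ± 0.11 (adjusted p = 0.00045), which passed under all alternatives tried. Its dimmer second probe set had the same sign but did not pass, at 0.21 (adjusted p = 0.16) and 0.23 (adjusted p = 0.156). Pde4b, a cyclic AMP-specific enzyme, had 5.16 to 6.15 (median 5.79) in the Spi-21 arrays, against 4.84 to 5.39 (median 5.15) in the ShamC-21 arrays. Its difference was 0.54 ± 0.12 (adjusted p = 0.00267) at 21 days and 0.32 ± 0.13 (adjusted p = 0.0806) at 60 days.

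The genes that fell at 21 days were of mixed kinds. Pde7a, specific for cyclic AMP, had 6.15 to 6.996 (median 6.74) in the Spi-21 arrays, against 6.77 to 7.95 (median 7.29) in the ShamC-21 arrays, with overlap. It differed by -0.65 ± 0.19 (adjusted p = 0.0173) at 21 days, lost without ShamC-21 replicate 1 (adjusted p = 0.0623), and by -0.29 ± 0.20 (adjusted p = 0.331) at 60 days. Pde3b, a cyclic AMP enzyme controlled by insulin in fat and liver, differed by -0.43 ± 0.15 (adjusted p = 0.0339) and -0.22 ± 0.15 (adjusted p = 0.315). The other genes to fall carry the name without being cyclic nucleotide hydrolases: Pde12, a mitochondrial enzyme that trims poly(A) tails, had 3.95 to 4.99 (median 4.64) in the Spi-21 arrays, against 5.08 to 5.83 (median 5.26) in the ShamC-21 arrays, without overlap, a difference of -0.77 ± 0.14 (adjusted p = 0.000576). At 60 days Pde12 differed by -0.51 ± 0.15 (adjusted p = 0.0187), and without ShamC-60 replicates 1 and 4 by -0.52 (adjusted p = 0.0864). Pde6d, a chaperone that carries lipid-modified proteins, differed by -0.59 ± 0.20 (adjusted p = 0.0392) at 21 days and by -0.02 ± 0.22 (adjusted p = 0.959) at 60 days. Pde3b and Pde6d were named after their values were seen. Pde1b, Pde2a and Pde4a showed 0.17, 0.07 and 0.072 at 21 days and 0.09, 0.069 and -0.057 at 60 days, and none passed. Pde1a and Pde4d were not analysed here.

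The 3 catalytic subunit genes of PP1, the phosphatase with the broadest range of neuronal substrates, differed in direction. Ppp1cb, the beta subunit found with myosin phosphatase, had 7.88 to 8.90 (median 8.47) in the Spi-21 arrays, against 8.65 to 9.35 (median 9.20) in the ShamC-21 arrays, and 7.89 to 8.82 (median 8.46) in the Spi-60 arrays, against 10.02, 8.96, 9.14, 10.29 and 8.62 in ShamC-60 replicates 1 to 5. Its groups overlapped on both days, and ShamC-60 replicates 1 and 4 were the highest of all. It differed by -0.75 ± 0.22 (adjusted p = 0.0147) and -1.003 ± 0.23 (adjusted p = 0.00307), and without those replicates by -0.50 (adjusted p = 0.159). Ppp1cc, the gamma subunit, had 11.22 to 12.18 (median 11.61) in the Spi-21 arrays, against 12.11 to 12.46 (median 12.25) in the ShamC-21 arrays. At 60 days the Spi-60 arrays had 11.19 up to 12 (median 11.75), against 12.43, 12.02, 12.16, 12.39 and 12.04 in ShamC-60 replicates 1 to 5, so every transected array was below every sham array. The differences were -0.62 ± 0.14 (adjusted p = 0.00267) and -0.58 ± 0.15 (adjusted p = 0.00657), and without ShamC-60 replicates 1 and 4 -0.45 (adjusted p = 0.125). Ppp1ca, the alpha subunit, had 9.26 to 9.68 (median 9.50) in the Spi-60 arrays, against 8.91, 9.03, 9.24, 9.21 and 9.25 in ShamC-60 replicates 1 to 5, without overlap. It was higher at 60 days, with a difference of 0.38 ± 0.085 (adjusted p = 0.00289), and at 21 days it showed 0.13 ± 0.08 (adjusted p = 0.237).

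Regulatory proteins of PP1 moved both ways: of 22 genes, 3 were higher and 4 lower at 21 days and 5 were higher and 3 lower at 60 days. Ppp1r14a, a PP1 inhibitor that protein kinase C activates in smooth muscle, was higher, with differences of 0.62 ± 0.15 (adjusted p = 0.00439) and 0.47 ± 0.16 (adjusted p = 0.0342), and its 60-day call was lost without any 1 of 8 arrays (highest adjusted p 0.0953). Ppp1r3b, which targets PP1 to glycogen in liver, was higher in its brightest probe set, with differences of 0.35 ± 0.10 (adjusted p = 0.0171) and 0.41 ± 0.11 (adjusted p = 0.0103). Its second probe set, nearly as bright (mean 4.96 against 4.97), had the opposite sign at -0.21 and -0.38. The mean of both sets was 0.068 (adjusted p = 0.649) and 0.012 (adjusted p = 0.948), so no direction is given for this gene. Ppp1r12c, a myosin phosphatase targeting subunit whose promoter is printed above, differed by 0.31 ± 0.17 (adjusted p = 0.18) and 0.56 ± 0.18 (adjusted p = 0.028). Ppp1r1c, an inhibitor related to the dopamine-regulated phosphoprotein Ppp1r1b, was lower, with differences of -0.71 ± 0.16 (adjusted p = 0.00324) and -0.59 ± 0.17 (adjusted p = 0.0176). It was 1 of 3 genes, with Akap9 and Prkcb, of the 17 lower at 60 days that still passed without ShamC-60 replicates 1 and 4. Its 60-day call was lost, however, without ShamC-60 replicate 5 (adjusted p = 0.0596). Ppp1r36 was lower, with a difference of -0.61 ± 0.20 (adjusted p = 0.0316) at 60 days.

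The classical inhibitors regulated by protein kinase A did not pass. Ppp1r1a, inhibitor protein of PP1, showed -0.026 and -0.45, and Ppp1r1b, known as DARPP, 0.099 and 0.19. Ppp1r9b, the dendritic spine scaffold spinophilin, was not analysed here.

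PP2A is built from a scaffold, a catalytic and a variable regulatory subunit, and 11 of its genes were measured, of which 4 were lower on both days and 2 higher at 60 days. Ppp2ca, a catalytic subunit, had 9.56 to 10.39 (median 9.97) in the Spi-21 arrays, against 10.65 to 10.87 (median 10.79) in the ShamC-21 arrays, and 8.56 to 10.50 (median 9.80) in the Spi-60 arrays, against 10.63, 10.42, 10.58, 10.52 and 10.34 in ShamC-60 replicates 1 to 5. At 21 days the groups were apart, and at 60 days 7 of 8 transected arrays were below every sham array. The differences were -0.78 ± 0.21 (adjusted p = 0.00841) and -0.78 ± 0.22 (adjusted p = 0.0127), and the promoter printed above holds the cyclic AMP motif. Its homologue Ppp2cb showed 0.21 and 0.24, which did not pass.

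The PP2A scaffold gene Ppp2r1a passed at 60 days and not at 21 days, and the difference between the days did not pass, at 0.81 ± 0.26 (adjusted p = 0.627). At 21 days it had 5.69 to 7.16 (median 6.60) in the Spi-21 arrays, against 6.18 to 6.63 (median 6.47) in the ShamC-21 arrays, and the Spi-21 arrays split, with replicates 1 to 4 at 6.88 to 7.16 and the other 4 at 5.69 to 6.32, on either side of the sham median. At 60 days it had 6.99 to 7.49 (median 7.17) in the Spi-60 arrays, against 6.49, 6.25, 6.39, 6.26 and 6.24 in ShamC-60 replicates 1 to 5, without overlap. The differences were 0.099 ± 0.18 (adjusted p = 0.723) and 0.91 ± 0.19 (adjusted p = 0.00145), and the 60-day call held without ShamC-60 replicates 1 and 4 at 0.94 (adjusted p = 0.0136). At 21 days the difference was -0.40 (adjusted p = 0.0518) without Spi-21 replicates 1 to 4 and 0.60 (adjusted p = 0.000638), passing, without replicates 5 to 8. Its second probe set showed 0.17 at 60 days (adjusted p = 0.191), and the mean of both sets was 0.54 (adjusted p = 0.00185).

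Regulatory subunits of PP2A accounted for the remaining calls. Ppp2r5e had 8.69 to 9.22 (median 8.996) in the Spi-60 arrays, against 9.77, 9.57, 9.47, 9.94 and 9.49 in ShamC-60 replicates 1 to 5, without overlap, and this member of the B56 family was lower, with differences of -0.58 ± 0.13 (adjusted p = 0.00363) and -0.66 ± 0.14 (adjusted p = 0.00195). Its 21-day call was lost on the mean of its probe sets, at -0.26 (adjusted p = 0.0556), and without Spi-21 replicates 1 to 4, at -0.34 (adjusted p = 0.0773). Its other probe sets showed 0.097 and -0.29 at 21 days, the second of which passed (adjusted p = 0.0414), and the 60-day mean of the sets was -0.29 (adjusted p = 0.042). Ppp2r5c, of the same family, was lower, with differences of -0.60 ± 0.19 (adjusted p = 0.0259) and -0.87 ± 0.20 (adjusted p = 0.00412), the first of which was lost without any 1 of 5 arrays. Ppp2r3c, of the B″ family, was lower, with differences of -0.88 ± 0.21 (adjusted p = 0.00419) and -0.74 ± 0.22 (adjusted p = 0.0196). Its 21-day value was -0.37 (adjusted p = 0.039) without Spi-21 replicates 1 to 4 and -1.39 (adjusted p = 2.01e-05) without replicates 5 to 8, and its 60-day call was lost without ShamC-60 replicate 1. Ppp2r5b, another B56 gene, was higher, with a difference of 0.52 ± 0.13 (adjusted p = 0.00758) at 60 days, with 0.21 (adjusted p = 0.318) without ShamC-60 replicates 1 and 4. With all arrays, B56 genes thus passed in opposite directions at 60 days.

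Among 7 genes of PP4, PP5 and PP6, 1 was higher and 3 lower at 21 days, and 1 was higher and 1 lower at 60 days. Ppp5c, the catalytic gene of PP5, a phosphatase that binds the chaperone Hsp90, had 5.89 to 7.01 (median 6.38) in the Spi-21 arrays, against 5.25 to 5.55 (median 5.40) in the ShamC-21 arrays, and 5.78 to 6.21 (median 6.03) in the Spi-60 arrays, against 5.31, 5.50, 5.48, 5.27 and 5.35 in ShamC-60 replicates 1 to 5. Every transected array was above every sham array on both days, by 0.9972 ± 0.12 (adjusted p = 5.68e-06) and 0.62 ± 0.13 (adjusted p = 0.0015), and both calls held under each alternative that included it. Ppp4r2, a regulatory subunit of PP4, had 5.75 to 7.97 (median 7.30) in the Spi-21 arrays, against 7.98 to 8.56 (median 8.25) in the ShamC-21 arrays. Its 60-day values were 6.75 to 8.01 (median 7.16) in the Spi-60 arrays, against 8.54, 8.14, 8.02, 9.68 and 7.94 in ShamC-60 replicates 1 to 5. It was lower, with differences of -1.04 ± 0.27 (adjusted p = 0.0073) and -1.23 ± 0.28 (adjusted p = 0.00343), and without ShamC-60 replicates 1 and 4 the 60-day value was -0.80 (adjusted p = 0.101). Ppp4r1, another PP4 subunit, was lower, with a difference of -0.42 ± 0.12 (adjusted p = 0.013) at 21 days and showed 0.26 ± 0.13 (adjusted p = 0.148) at 60 days.

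Calcineurin, the calcium-activated phosphatase, was represented by 3 genes. Its regulatory subunit gene Ppp3r1 had 4.62 to 5.36 (median 5.09) in the Spi-21 arrays, against 4.43 to 4.89 (median 4.60) in the ShamC-21 arrays, a difference of 0.43 ± 0.13 (adjusted p = 0.0215) that was lost without ShamC-21 replicate 5 (adjusted p = 0.055), and at 60 days it showed -0.022 ± 0.14 (adjusted p = 0.932). The catalytic genes Ppp3ca and Ppp3cb were not analysed here, and the gamma catalytic gene, Ppp3cc, showed -0.12 and -0.41.

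Of 7 metal-dependent phosphatases, 1 was higher and 1 lower on each day. Ppm1g, a nuclear phosphatase linked to splicing, was the 1 gene that passed in opposite directions. It had 6.68 to 7.24 (median 7.10) in the Spi-21 arrays, against 7.29 to 7.60 (median 7.41) in the ShamC-21 arrays, without overlap, and 7.13 to 7.66 (median 7.50) in the Spi-60 arrays, against 7.10, 7.29, 7.14, 6.85 and 7.21 in ShamC-60 replicates 1 to 5, with overlap. The differences were -0.40 ± 0.10 (adjusted p = 0.00697) and 0.32 ± 0.11 (adjusted p = 0.0357), and the 60-day call was lost without any 1 of 8 arrays (highest adjusted p 0.141). The 21-day call was lost without Spi-21 replicates 5 to 8, at -0.25 (adjusted p = 0.0856). Ppm1d, a phosphatase induced by p53, differed by -0.69 ± 0.23 (adjusted p = 0.0391) at 60 days, and by -0.20 (adjusted p = 0.639) without ShamC-60 replicates 1 and 4, which were at 7.30 and 8.28. Ppm1k, a mitochondrial phosphatase of branched-chain amino acid breakdown named after its values were seen, was higher, with a difference of 0.27 ± 0.087 (adjusted p = 0.0262) at 21 days, and Ppm1a showed -0.13 and 0.16.

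**Figure D3:**
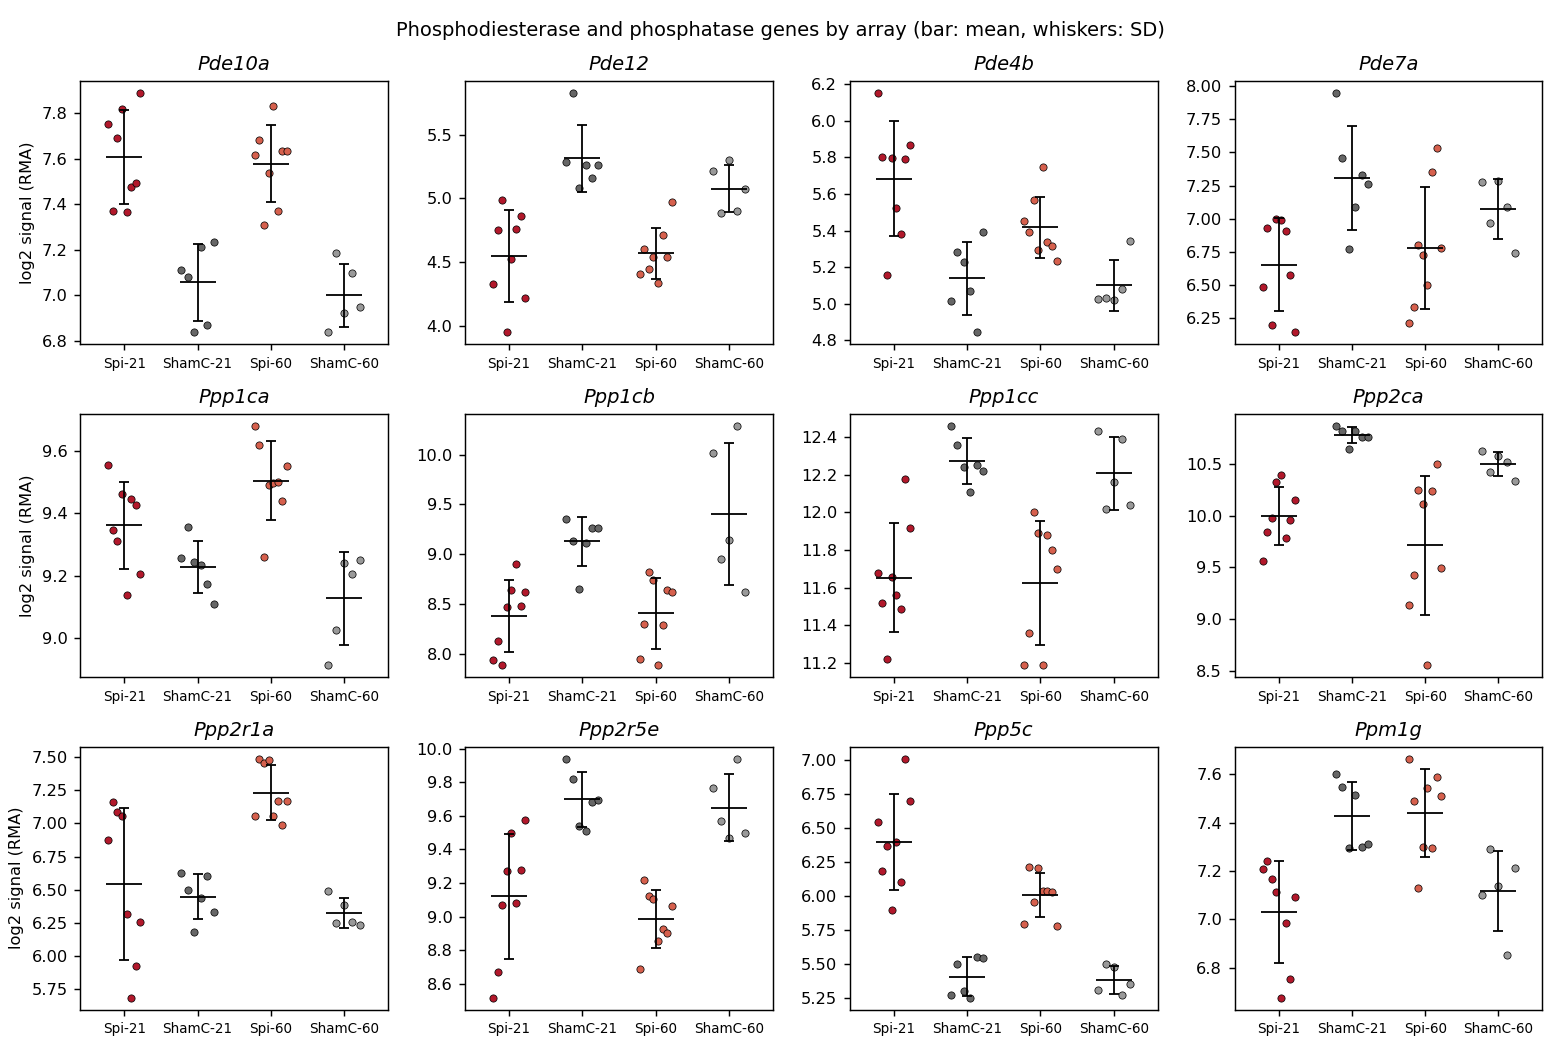
Log2 signal of 12 phosphodiesterase and phosphatase genes in each array, in the order Spi-21, ShamC-21, Spi-60 and ShamC-60, with the mean and SD of each group; the vertical scale differs between panels and does not start at 0. Pde10a and Ppp5c lie higher in every transected array than in every sham array of the same day, Ppp2r1a and Ppp1ca separate upward at 60 days only, and Ppm1g lies below the sham arrays at 21 days and mostly above them at 60 days.

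The 2 days, each tested against its own sham group, shared called genes. Of the 14 genes higher at 21 days 11 were also higher at 60 days (78.6% of that list and 57.9% of the 19 at 60 days, against 46.4% and 48.3% over all 9769 genes): Prkaca, Prkaa2, Camk2g, Camk2n1, Akap8l, Akap17a, Pde10a, Ppp5c, Ppp1r14a, Ppp1r16a and, in its brightest probe set alone, Ppp1r3b. Of the 23 lower at 21 days 12 were also lower at 60 days (52.2%, and 70.6% of the 17, against 47.5% and 57.8% over all genes): Prkcb, Akap7, Akap9, Pde12, Ppp1cb, Ppp1cc, Ppp1r1c, Ppp2ca, Ppp2r3c, Ppp2r5c, Ppp2r5e and Ppp4r2. Those that separated completely on both days were Akap8l, Camk2n1, Pde10a, Ppp5c, Prkaa2 and Prkaca above the sham arrays and Akap9 and Prkcb below them, or 5.13% and 1.71% of the 117 genes, against 1.42% and 0.829% of all genes. The same sign on both days was seen for 86 of the 117 genes (73.5%), against 77.7% of all genes.

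A further 13 genes passed at 21 days only and 12 at 60 days only. Over all 9769 genes 2207 were called at 21 days and 1964 at 60 days, with 503 higher and 533 lower on both days. The test of the difference between the days (limma) called 0 of the 117 genes and 0.0% of all probe sets. At an unadjusted p under 0.05 were 15 of the 117 genes and 905 of the 12913 probe sets. The smallest p belonged to Ppm1g, with a change of the transection effect of 0.72 ± 0.15 (adjusted p = 0.338), followed by Ppp4r1 at 0.68 ± 0.17 (adjusted p = 0.609) and Prkar1b at 0.68 ± 0.19 (adjusted p = 0.627). The smallest p among negative changes were those of Akap13, an anchoring protein, at -0.51 ± 0.17 (adjusted p = 0.627), Ppp3r1 at -0.45 ± 0.19 (adjusted p = 0.654) and Ppp5c at -0.37 ± 0.18 (adjusted p = 0.703). Without Spi-21 replicates 1 to 4 the test called 1.25% of all probe sets and 5 of the 117 genes. These were Ppp2r1a (1.31), Prkar1b (0.94), Ppm1g (0.87), Camk2g (0.84) and Ppp4r1 (0.69). Without Spi-21 replicates 5 to 8 the test called 0.0% of all probe sets. The count of 0 thus held without replicates 5 to 8 but not without replicates 1 to 4. Within Spi-21, replicates 1 to 4 and replicates 5 to 8 had separate ranges for 9 of the 63 named genes. Replicates 1 to 4 were the higher ones for Camk2g, Ppm1g, Ppp2r1a, Prkaca and Prkar1b and the lower ones for Adcy8, Akap9, Ppp1cb and Ppp2r3c. Such ranges were not counted over all probe sets, and the named genes were partly chosen by their 21-day differences. Whether 9 of 63 is unusual was therefore not tested.

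Between transected arrays alone, Spi-60 minus Spi-21, 0 of the 117 genes passed, against 0.0852% of all probe sets (0.0465% higher and 0.0387% lower). At an unadjusted p under 0.05 were 21 of the 117 genes and 1706 of the 12913 probe sets. Ppm1g came nearest at 0.41 ± 0.094 (adjusted p = 0.0726), then Ppp2r1a at 0.68 ± 0.17 (adjusted p = 0.0808) and Ppp4r1 at 0.39 ± 0.11 (adjusted p = 0.117), and in the other direction Ppp5c at -0.39 ± 0.11 (adjusted p = 0.122), Prkag2 at -0.35 ± 0.12 (adjusted p = 0.19) and Akap17a at -0.27 ± 0.11 (adjusted p = 0.277). Leaving out Spi-21 replicate 2 let Ppm1g and Ppp2r1a pass (0.356% of all probe sets), and leaving out replicate 4 let these, Ppp4r1 and Ppp5c pass (0.643%). Between sham arrays, ShamC-60 minus ShamC-21, 0 of the 117 genes passed, against 0.0% of all probe sets. An unadjusted p under 0.05 was seen for 513 of the 12913 probe sets and for 6 of the 117 genes: Ppm1g (-0.31), Ppp1r14b (-0.36), Akap12 (-0.65), Akap13 (0.31), Ppp4r1 (-0.29) and Prkag1 (-0.19). Ppm1g and Ppp4r1 therefore had differences of opposite sign between the days in the transected and the sham groups, none of which passed.

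**Figure D4:**
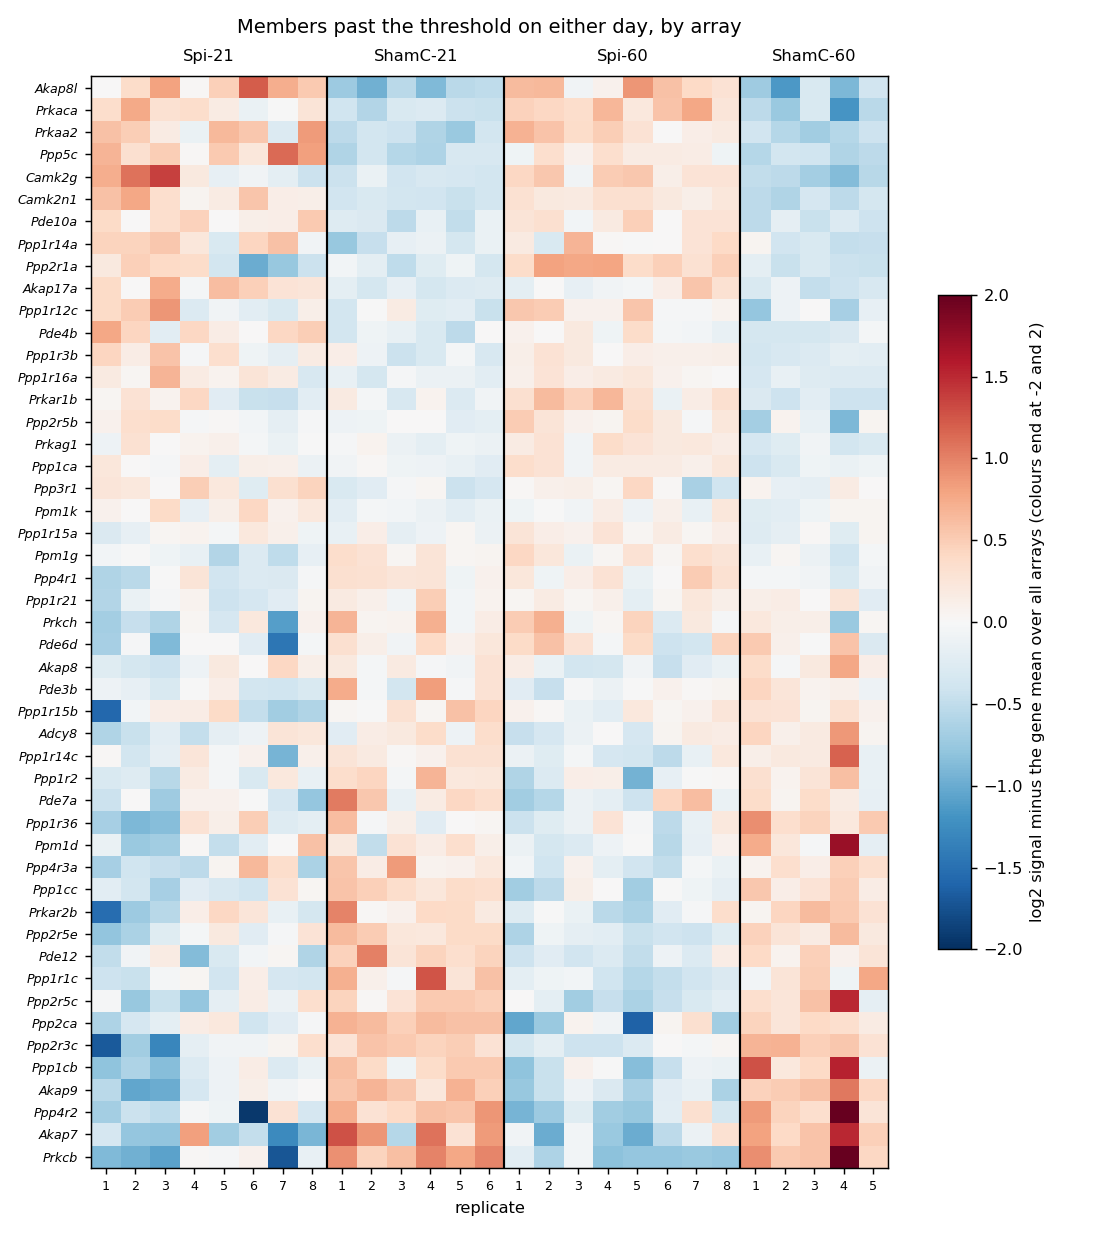
Log2 signal minus the gene's mean over the 27 arrays for the 49 genes that passed on either day, with arrays in columns by group (replicate numbers below) and genes ordered by the sum of both differences. The upper genes are red in most transected columns and the lower genes blue, and Prkcb reaches 11.33 in ShamC-60 replicate 4 against 9.43 to 9.95 in the other 4 arrays of that group.

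The genes lower at 60 days lost more calls than the higher genes when sham arrays were left out. Calls also became fewer over all probe sets in that fit, which had fewer sham arrays. The share called higher went from 10.2% to 3.66% and the share called lower from 8.92% to 2.52%. Without ShamC-60 replicates 1 and 4 all 36 called genes kept their sign, and 11 of 19 higher genes but 3 of 17 lower genes still passed. The higher genes that did were Prkaca, Prkar1b, Prkaa2, Prkag1, Akap8l, Camk2g, Camk2n1, Pde10a, Ppp1ca, Ppp2r1a and Ppp5c. Prkaca was 0.99 (adjusted p = 0.000132) there and Akap8l 1.04 (adjusted p = 0.00467), both near their values with all arrays. Some genes lost the call with a difference about as large: Ppp2ca was -0.73, Ppp2r3c -0.69, Pde12 -0.52, Ppp1r36 -0.56, Ppp1r14a 0.54, Ppp1r3b 0.40 and Akap17a 0.37. For others the difference was also over 1.5 times smaller: Adcy8 was -0.22, Ppm1d -0.20, Ppp1cb -0.50, Ppp1r12c 0.31, Ppp2r5b 0.21 and Ppp4r2 -0.80. Without Spi-21 replicates 1 to 4, 12 of the 29 named genes called at 21 days lost the call. Of these, Camk2g (0.11), Prkar2b (-0.31), Ppp1cb (-0.47), Ppp2r5c (-0.33) and Ppp2r5e (-0.34) were over 1.5 times smaller, and Pde7a (-0.65), Ppp1cc (-0.49), Ppp1r14a (0.49), Ppp1r3b (0.24), Ppp2ca (-0.71), Ppp3r1 (0.40) and Prkch (-0.55) were less than 1.5 times smaller.

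**Figure D5:**
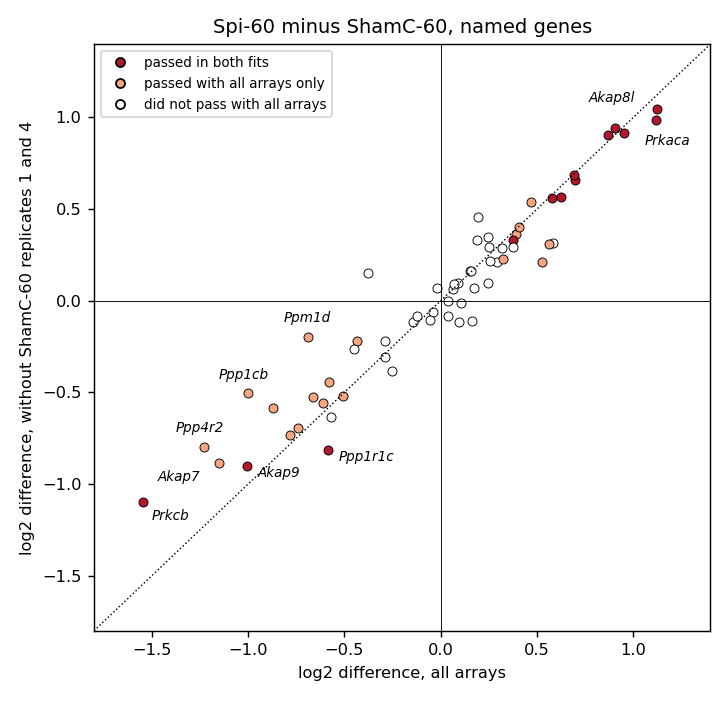
Log2 difference, Spi-60 minus ShamC-60, of the named genes with all arrays (horizontal) and without ShamC-60 replicates 1 and 4 (vertical), with a dotted line where both are equal. Some genes lie near the line, such as Prkaca at 1.12 and 0.99 and Ppp2ca at -0.78 and -0.73, and others lie nearer to 0 without the arrays, such as Ppp2r5b at 0.52 and 0.21 and Ppp1cb at -1.003 and -0.50.

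Calls were also counted by signal level. Of the 65 genes above the median signal of 6.35, 6 were higher and 18 lower at 21 days, where 10.6% and 16.7% of all such probe sets were called, and of the 52 below it 8 were higher and 5 lower, where 12.1% and 5.82% were. At 60 days the brighter genes had 13 higher and 14 lower, where 14.8% and 13.7% of such probe sets were called, and the dimmer genes 6 higher and 3 lower, where 5.54% and 4.15% were. Other probe sets of the same genes gave the same sign for 13 of 16 sets of 12 called genes at 21 days and for 12 of 14 sets of 11 genes at 60 days. Of these 7 and 2 passed in the same direction, and 0 passed in the other.

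Of 59 further genes of these pathways in a list that the naming rule does not take in, 34 were measured. At 21 days 5 were higher and 4 lower, where 11.1% and 11.5% of all genes were called by their brightest probe set. At 60 days 3 were higher and 4 lower, where 10.7% and 9.44% of all genes were. Rapgef4, the cyclic AMP-activated exchange factor Epac of neurons, had 2.56 to 5.49 (median 4.67) in the Spi-21 arrays, against 5.64 to 6.94 (median 6.18) in the ShamC-21 arrays, without overlap. At 60 days it had 4.02 to 5.54 (median 5.06) in the Spi-60 arrays, against 5.49 to 8.86 (median 5.86, mean 6.71) in the ShamC-60 arrays, with overlap. The differences of means were -1.53 ± 0.43 (adjusted p = 0.0128) at 21 days and -1.78 ± 0.45 (adjusted p = 0.00722) at 60 days. Cacybp, the calcyclin binding protein, was lower, with differences of -1.48 ± 0.33 (adjusted p = 0.00277) and -1.35 ± 0.35 (adjusted p = 0.00825), and Atf1, a CREB relative that binds the same element, was also lower, with differences of -0.73 ± 0.26 (adjusted p = 0.04) and -1.03 ± 0.27 (adjusted p = 0.00858). Pkib, an inhibitor peptide of protein kinase A, was lower at 60 days, with a difference of -1.09 ± 0.30 (adjusted p = 0.0127). Its values were 4.999 to 5.925 (median 5.29) in the Spi-60 arrays, against 5.47 to 8.46 (median 6.27) in the ShamC-60 arrays, with overlap. Gnai2, an inhibitory G protein subunit for adenylyl cyclase, was higher, with differences of 0.64 ± 0.14 (adjusted p = 0.00267) and 0.65 ± 0.15 (adjusted p = 0.00343), and Prkg2, a cyclic GMP-dependent kinase, also higher, with differences of 0.52 ± 0.11 (adjusted p = 0.00167) and 0.51 ± 0.12 (adjusted p = 0.00302). Rapgef3, the other Epac gene, was higher, with a difference of 0.37 ± 0.11 (adjusted p = 0.0195) at 21 days. Plcb4 and Plcb3, phospholipases that make diacylglycerol, passed in opposite directions at 21 days, at -0.66 ± 0.16 (adjusted p = 0.00412) and 0.28 ± 0.093 (adjusted p = 0.0299). Neither passed at 60 days, at -0.14 (adjusted p = 0.577) and 0.23 (adjusted p = 0.0936). Nfatc4, a calcineurin target, was higher, with a difference of 0.30 ± 0.089 (adjusted p = 0.0197) at 60 days, and Creb1 itself showed 0.041 and 0.23, which did not pass.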

How the data were processed

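The deposited table holds log2 expression values per probe set, made by the authors with RMA per the submitters' processing notes. RMA fits each probe set across all arrays together, so a deviating array can touch the others, and the 2-round amplification favours 3′ ends. Of 12919 probe sets 6 controls were left out and 12913 tested with limma 3.58.1 (R 4.3.3): one fit to the 4 groups over 27 arrays, with Benjamini-Hochberg adjustment over all probe sets and a threshold of 0.05. Arrays have no depth, so their number sets the precision. Genes were named by GEO's platform annotation, which can be old. The procedure was tested on simulated data first. The members, pathway lists and alternatives were chosen with earlier results of these data known. Besides a fixed set of pathway genes, up to 12 called genes per direction and day with the largest difference, 3 per direction and comparison between days with the smallest p and 4 pathway partners per direction were named, and a few further genes were named after their values were seen. Alternatives were each array left out, 3 sets of arrays left out, a replicate block, array weights, a signal filter, quantile normalization, the compared groups alone and the mean of a gene's probe sets. The sample labels and the design text give different ranges for the neurons pooled per sample, and input per array is not known.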

Additional observations from a re-analysis of the deposited data

Results flagged for a closer look

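In 252 groups of arrays of the 63 named genes, 19 single arrays lay far from the others of their group by Dixon's test, which chance alone gives in about 1 group in 20. ShamC-60 replicate 4 held 6 of the 19. In that array Prkcb was at 11.33, with the nearest other array at 9.95, Akap9 at 9.53 (nearest 9.06) and Camkv at 8.28 (nearest 6.22), while Akap12 was low at 8.16 (nearest 9.73), Prkch at 6.74 (nearest 7.52) and Ppp4r1 at 6.00 (nearest 6.22).

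Among Spi-21 arrays, Akap7 was high in replicate 4 at 8.90 (nearest 7.74), and low values were those of Ppp4r2 in replicate 6 at 5.75 (nearest 7.00), Adcy5 in replicate 6 at 5.52 (nearest 5.90) and Prkcz in replicate 7 at 6.62 (nearest 7.43). In Spi-60 arrays Pde4a was low in replicate 3 at 5.87 (nearest 6.01) and Prkci high in replicate 1 at 6.09 (nearest 5.84). In ShamC-21 arrays replicate 2 was high for Camk2g at 6.31 (nearest 6.12) and Pde12 at 5.83 (nearest 5.28) and low for Ppm1d at 6.06 (nearest 6.67). There, replicate 3 was low for Camk2b at 5.94 (nearest 6.54) and Ppp1cb at 8.65 (nearest 9.11), and replicate 4 was high for Camkk2 at 6.30 (nearest 5.87). Pde4b was high in ShamC-60 replicate 5 at 5.34 (nearest 5.08).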

How the results depend on the processing

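For the 63 genes named by the rule, no called difference changed sign under the alternatives tried. Pathway partners were not rerun under alternatives, and genes named after their values were seen were not rerun with single arrays left out. Without ShamC-60 replicates 1 and 4 the 60-day counts were 11 higher and 4 lower, against 19 and 17 with all arrays. Without Spi-21 replicates 1 to 4 the 21-day counts were 10 higher and 10 lower, against 14 and 23. In that fit 5 genes differed in their transection effect between days and 7 between transected groups, where 1.25% and 4.88% of all probe sets did. Without Spi-21 replicates 5 to 8 these shares of all probe sets were 0.0% and 0.403%. The cause of these changes was not tested. With probe sets above the median signal alone, 6 genes were higher at 21 days, since fewer genes were tested. Leaving out each array in turn gave 12 to 15 higher and 14 to 25 lower at 21 days, 14 to 21 higher and 12 to 19 lower at 60 days, and 0 to 4 between transected groups. Of the 29 genes named by the rule and called at 21 days, 16 passed under all alternatives that included them, and of 31 at 60 days 12 did. The signal filter included 19 of the 29 and 23 of the 31. The labels give same-numbered arrays nothing in common but the number, and whether they shared more is not known (correlations of -0.309 to 0.331, 9 of 35 above 0.1). With the replicate block 17 genes were higher and 22 lower at 21 days, where 12.7% and 12.3% of all probe sets were called. At 60 days the counts were 17 and 19, where 12.4% and 11.4% were called. No array signal over background is given in the deposited table, so dim probe sets could not be bounded.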
